A study of Mus musculus with 12 samples.

Results

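The M-band and the Z-disc are the cross-linking planes of the sarcomere, and 10 genes of their isoform families were followed here: the myomesins Myom1, Myom2 and Myom3, the alpha-actinins Actn2 and Actn3, the myozenins Myoz1, Myoz2 and Myoz3, and the skeletal myosin binding proteins C Mybpc1 and Mybpc2. The members were all probe sets that the platform annotation maps to exactly 1 of these symbols, which gave 17 of the 45101 probe sets in the deposited table, between 1 and 4 per gene. They are 10 of the 18194 genes that had a probe set of their own. Of these 17, 15 passed the filter on dim signals and were tested. The other 2, Myom2 1438372_at and Myoz3 1450365_at, lay below the background level of log2 3.55 on every array, between log2 2.20 and 2.24 and between log2 2.03 and 2.11. Every gene kept at least 1 tested probe set.

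RNA was taken at 4 weeks of age from tibialis anterior (TA) and soleus muscles of mice that either carried a knockout (KO) of H6pd, the hexose-6-phosphate dehydrogenase of the endoplasmic reticulum lumen, or were wild type (WT). The 4 groups were soleus of KO and of WT mice and TA of KO and of WT mice, with 3 Affymetrix arrays each, called biological replicates in the labels, and 12 arrays in all. Per the design text the mice were weaned and without overt myopathy, and the 2 muscles were chosen for their different fibre types and metabolism. The deleted part of H6pd, the cells that lacked it and the strain were not given in the sources used here. Signals are log2 values after quantile normalization, so a difference of 1 is a 2-fold difference. The number of arrays limits the precision of every value, and an exact permutation test on 1 probe set, with 3 arrays in each group, has p = 0.1 as its smallest value. Differences were therefore tested with limma over all 22660 kept probe sets, with Benjamini-Hochberg adjusted p-values and a threshold of 0.05.

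Myomesins tie neighbouring myosin filaments together at the M-band. Myom1 is their general form, Myom2 (M-protein) is typical of fast fibres, and Myom3 is found in slow and intermediate fibres. Alpha-actinins hold the actin filaments at the Z-disc, Actn2 in all fibres and Actn3 in fast ones, and myozenins (calsarcins) bind alpha-actinin and the phosphatase calcineurin there. Myosin binding proteins C lie along the thick filament on both sides of the M-band, as a slow (Mybpc1) and a fast (Mybpc2) isoform.

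Fibre markers were compared between the labelled muscles. All 9 slow fibre markers were higher in soleus than in TA in KO and in WT mice, with median log2 differences of 6.45 in KO and 7.52 in WT. Of 11 fast fibre markers, 3 were lower in soleus in each genotype, 1 was higher and the other 7 did not pass, at medians of -0.16 in KO and -0.26 in WT. The lower ones were the myosin Myh4 (-4.27 in KO and -4.45 in WT, adjusted p = 0.0244 and 0.0184), the calcium pump Atp2a1 and the calcium-binding Casq1. The higher one was Myh2, the myosin of fast oxidative fibres (1.31 in KO and 2.94 in WT, adjusted p = 0.0138 and 0.000179). Several fast fibre markers lay near the top of the scale in both muscles, such as Tnnc2 with group means of 15.90 to 15.98. Whether signals are compressed there was not tested. Of 7 cardiac markers, Nppa, Nppb, Tnni3, Myl7, Mybpc3 and Ryr2 were at or near background on average in all 4 groups. The other, the alpha myosin heavy chain Myh6, averaged 8.72 in KO and 8.42 in WT soleus and 4.42 in KO and 3.86 in WT TA, and was higher in soleus by 4.31 in KO and 4.56 in WT (adjusted p = 3.37e-06 and 1.42e-06). H6pd itself, on 1 probe set, averaged 4.90 in KO and 6.27 in WT soleus (difference -1.36, adjusted p = 0.654), and 6.96 in KO and 6.85 in WT TA (difference 0.11, adjusted p = 0.972), so its signal did not separate the genotype labels, which were used as given. The arrays numbered 3 of all 4 groups stood apart from the other 8 on the second principal component, which held 23.9% of the variance, at -55.4 to -39.1 against 11.2 to 32.4. Each group held 1 of them. With the replicate number as a block, 1232 probe sets in place of 458 differed between KO and WT TA, 3298 in place of 1746 between WT soleus and TA, 2994 in place of 1496 between KO soleus and TA, and 1 in place of 8 in the difference of the KO effects.

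**Figure D1:**
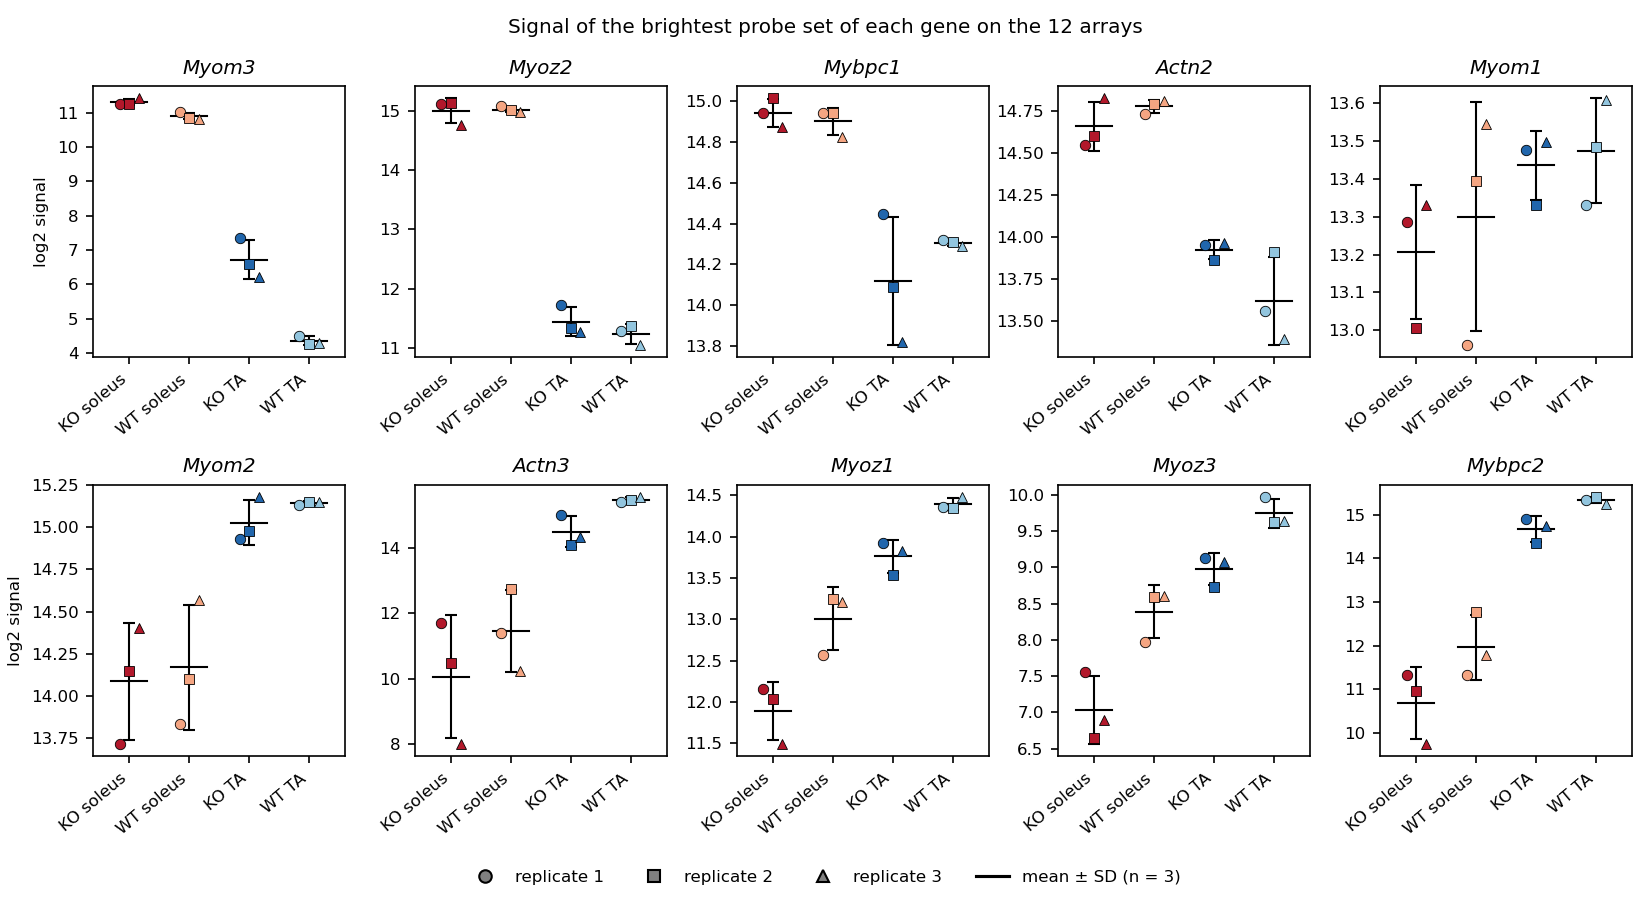
Log2 signal of the brightest probe set of each of the 10 genes on the 12 arrays, by group, with the vertical scale set for each gene. Points are arrays, shaped by replicate number, and bars are mean ± SD (n = 3). Myom3, Myoz2, Mybpc1 and Actn2 lie higher in soleus, the lower row lies higher in TA, and Myom1 spans only 0.27 between its group means.

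The comparison of soleus with TA asks how the isoforms divide between muscles of different fibre types. Of the 15 tested probe sets, 12 differed between the muscles in KO mice and 12 in WT mice, 4 higher and 8 lower in soleus in each genotype. These represent 9 of the 10 genes, all but Myom1. Over all tested probe sets, 6.6% differed in KO mice (3.11% higher and 3.5% lower in soleus) and 7.71% in WT mice (3.3% higher and 4.4% lower). The members' median difference was -0.94 in KO and -0.98 in WT, beside -0.02 for all probe sets in both. In a bulk muscle sample, fewer fibres of a type and less RNA per fibre cannot be told apart. The count of 12 in WT mice was 7 without WT soleus replicate 1, where 3.94% of all probe sets differed. The count in KO mice was 6 when the fit held only the KO arrays, where 2.97% of all probe sets differed.

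Myom3 had the widest span of group means of any member, 6.96 on the log2 scale. Its signal was 11.26, 11.26 and 11.42 on the KO soleus arrays, 11.01, 10.86 and 10.83 on the WT soleus arrays, 7.35, 6.58 and 6.22 on the KO TA arrays and 4.50, 4.27 and 4.30 on the WT TA arrays. No 2 of the 4 groups overlapped. In KO mice soleus exceeded TA by 4.60 (SE 0.235, adjusted p = 6.73e-06), or 24.2-fold, and in WT mice by 6.55 (SE 0.235, adjusted p = 6.7e-07), or 93.4-fold. WT TA was the dimmest group, with a mean of 4.36 that was still above the background level of 3.55 taken from olfactory receptor probe sets. Over all settings tried, the excess in soleus ranged from 4.29 to 4.91 in KO and from 5.72 to 6.70 in WT mice.

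Myoz2, the myozenin of slow and cardiac muscle, followed the same division of muscles with little effect of genotype. It had 15.12, 15.13 and 14.77 in KO soleus, 15.07, 15.02 and 14.98 in WT soleus, 11.72, 11.33 and 11.26 in KO TA and 11.28, 11.37 and 11.05 in WT TA. All 6 soleus arrays were thus above all 6 TA arrays, while KO and WT overlapped within each muscle. The difference between soleus and TA was 3.57 in KO (SE 0.14, adjusted p = 1.62e-06) and 3.79 in WT mice (SE 0.14, adjusted p = 7.56e-07), or 11.8-fold and 13.8-fold. In WT soleus its mean exceeded 99.87% of probe sets, near the top of the scale, and whether signals are compressed there was not tested.

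RefSeq promoters, from 250 bases before to 50 after the annotated start, were used for 6 of the 10 genes. The search for members, unlike the count over all promoters, left out a chromosome, so a member on it would be missing. Promoters are shown for the pair with the largest excess in soleus, Myom3 and Myoz2, and for Mybpc2, which was lower in soleus. Build GRCm38.p6 places them at chr4:135759465-135759764 on the plus strand, chr3:123034938-123035237 on the minus strand and chr7:44524620-44524919 on the minus strand. Capitals mark E-boxes, the letters CANNTG bound by myogenic factors such as MyoD, and the MEF2 box, each read on both strands.
Myom3: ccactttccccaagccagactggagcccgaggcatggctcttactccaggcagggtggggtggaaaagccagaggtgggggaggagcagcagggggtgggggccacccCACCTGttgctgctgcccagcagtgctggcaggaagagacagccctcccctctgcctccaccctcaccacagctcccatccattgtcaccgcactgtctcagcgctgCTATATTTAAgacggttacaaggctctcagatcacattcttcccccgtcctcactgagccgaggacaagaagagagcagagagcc
Myoz2: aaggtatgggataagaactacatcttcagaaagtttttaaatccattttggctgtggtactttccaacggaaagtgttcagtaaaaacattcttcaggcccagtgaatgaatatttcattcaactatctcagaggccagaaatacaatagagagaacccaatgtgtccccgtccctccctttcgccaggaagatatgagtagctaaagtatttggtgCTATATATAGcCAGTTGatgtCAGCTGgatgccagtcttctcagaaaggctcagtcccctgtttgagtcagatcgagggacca
Mybpc2: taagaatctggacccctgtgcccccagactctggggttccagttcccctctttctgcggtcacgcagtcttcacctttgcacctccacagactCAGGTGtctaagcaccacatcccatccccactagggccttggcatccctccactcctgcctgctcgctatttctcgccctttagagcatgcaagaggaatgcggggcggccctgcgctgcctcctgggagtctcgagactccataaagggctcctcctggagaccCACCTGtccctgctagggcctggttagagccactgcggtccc
The promoters of Myom3 and Myoz2 held a MEF2 box just before the start, at -35 to -26 in Myom3 and at -33 to -24 in Myoz2. The other 4 member promoters had no match to it. Among these were Actn2 and Mybpc1, which were also higher in soleus, Mybpc1 on its brightest probe set. Of all 32851 promoters of this length 3.19% held one. Each of the 6 member promoters held 1 to 3 E-boxes, which 72.3% of all promoters had. In Myoz2, 2 E-boxes followed the MEF2 box, at -22 to -17 and at -12 to -7, with no overlap. The letters CATTCC were found at -62 to -57 in Mybpc2 and in 14.7% of all promoters, and TATAAA in none of the 6 and in 13.6% of all. Other AT-rich variants of TATAAA were not searched, and whether the MEF2 boxes near the start also match 1 was not tested. All matches given here describe the letters only.

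Actn2, the general sarcomeric alpha-actinin, was also higher in soleus, by far less. Its signals were 14.55, 14.60 and 14.82 in KO soleus, 14.73, 14.79 and 14.81 in WT soleus, 13.95, 13.86 and 13.96 in KO TA and 13.56, 13.91 and 13.39 in WT TA. Soleus and TA did not overlap, whereas the genotypes did in both muscles. Soleus exceeded TA by 0.73 in KO (SE 0.12, adjusted p = 0.00834) and by 1.16 in WT mice (SE 0.12, adjusted p = 0.000614).

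Mybpc1, the slow isoform of myosin binding protein C, was read by 3 probe sets that differed in their spread. The brightest, 1455645_at, had 14.94, 15.02 and 14.88 in KO soleus, 14.94, 14.94 and 14.82 in WT soleus, 14.45, 14.09 and 13.82 in KO TA and 14.32, 14.31 and 14.29 in WT TA. The muscles did not overlap on it, and soleus was higher by 0.83 in KO (adjusted p = 0.00591) and by 0.60 in WT mice (adjusted p = 0.0241). This call in WT mice was lost without WT soleus replicate 1 or 2 or any single WT TA replicate, with differences of 0.58 to 0.60 and adjusted p from 0.0592 to 0.0831.

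On the other 2 probe sets of Mybpc1 the arrays numbered 3 were the lowest of every group. 1444341_at had 11.81 on KO soleus replicate 3 against 13.42 and 13.87 on replicates 1 and 2, and 12.03 on WT soleus replicate 3 against 13.82 and 13.71. In TA it had 10.60 on KO replicate 3 against 12.72 and 12.65, and 10.90 on WT replicate 3 against 12.56 and 12.93. 1442769_at showed the same order, with 10.65 to 12.23 on the arrays numbered 3 and 12.08 to 13.48 on the others. Soleus against TA did not pass on either (1.04 and 1.17 in KO, 1.06 and 1.20 in WT, adjusted p from 0.219 to 0.528). With the replicate block all 4 of these differences passed, with adjusted p of 0.00262 and 0.00442 in KO and 0.00236 and 0.00371 in WT mice, and they passed without the arrays numbered 3 too.

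**Figure D2:**
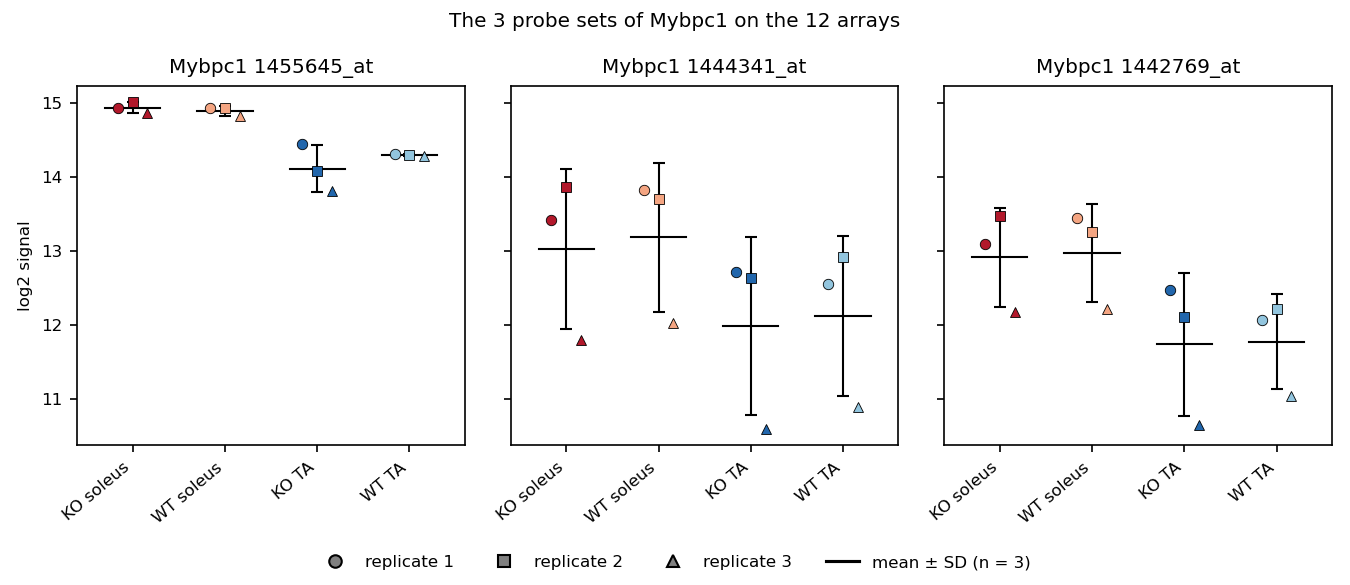
Log2 signal of the 3 probe sets of Mybpc1 on the 12 arrays, by group, on one scale. Points are arrays, shaped by replicate number, and bars are mean ± SD (n = 3). On 1444341_at and 1442769_at the arrays numbered 3 lie lowest in all 4 groups, at 10.60 to 12.23, while on 1455645_at the 3 WT TA arrays lie between 14.29 and 14.32.

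The fast isoforms ran the other way. Actn3, the fast-fibre alpha-actinin, had 11.70, 10.49 and 8.0 in KO soleus, 11.39, 12.76 and 10.24 in WT soleus, 15.02, 14.11 and 14.35 in KO TA and 15.42, 15.48 and 15.56 in WT TA. The soleus arrays were both lower and far more scattered than the TA arrays, with SDs of 1.88 in KO and 1.26 in WT soleus against 0.47 in KO and 0.07 in WT TA. Soleus was lower, with differences of -4.43 in KO (SE 0.86, adjusted p = 0.0149), or 21.6-fold, and -4.02 in WT mice (SE 0.86, adjusted p = 0.0208), or 16.2-fold. The call in KO mice was lost without KO TA replicate 1 (-4.17, adjusted p = 0.0542), and that in WT mice without WT soleus replicate 1 or 3 or any single WT TA replicate (-4.05 to -3.41, adjusted p from 0.0535 to 0.0724).

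Mybpc2, the fast myosin binding protein C, had 11.33, 10.96 and 9.74 in KO soleus, 11.33, 12.78 and 11.78 in WT soleus, 14.91, 14.35 and 14.75 in KO TA and 15.34, 15.40 and 15.26 in WT TA. The muscles did not overlap. Soleus was lower, with differences of -3.99 in KO (SE 0.43, adjusted p = 0.000724) and -3.37 in WT mice (SE 0.43, adjusted p = 0.00172), or 15.9-fold and 10.3-fold. This call held under every setting tried, with adjusted p up to 0.0159 in KO and 0.0148 in WT.

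Myoz1, a myozenin of fast fibres, was read by 2 tested probe sets. The brighter, 1460202_at, had 12.15, 12.04 and 11.49 in KO soleus, 12.57, 13.25 and 13.21 in WT soleus, 13.92, 13.54 and 13.82 in KO TA and 14.37, 14.35 and 14.48 in WT TA. The groups formed 4 separate steps, from KO soleus up to WT TA. Soleus was lower, with differences of -1.87 in KO (adjusted p = 0.00105) and -1.39 in WT mice (adjusted p = 0.00434). On the dimmer 1448636_at, between 4.28 and 9.59, the same order of groups held without overlap and soleus was lower again (-2.72 in KO, adjusted p = 0.00841, and -2.47 in WT, adjusted p = 0.0112).

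Myoz3, the third myozenin, had 7.56, 6.65 and 6.89 in KO soleus, 7.97, 8.59 and 8.61 in WT soleus, 9.13, 8.73 and 9.08 in KO TA and 9.97, 9.62 and 9.64 in WT TA. It formed the same 4 steps as Myoz1, with no overlap between neighbours. Soleus was lower, with differences of -1.95 in KO (SE 0.26, adjusted p = 0.00226) and -1.35 in WT mice (SE 0.26, adjusted p = 0.0118). The WT call was lost without the arrays numbered 3 (-1.52, adjusted p = 0.0603).

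Myom2, the M-protein, had 3 tested probe sets, all lower in soleus. On the brightest, 1457435_x_at, the signals were 13.71, 14.15 and 14.40 in KO soleus, 13.83, 14.10 and 14.57 in WT soleus, 14.93, 14.98 and 15.18 in KO TA and 15.13, 15.15 and 15.15 in WT TA. The genotypes overlapped in both muscles and the muscles did not. The difference was -0.94 in KO (adjusted p = 0.0231) and -0.98 in WT (adjusted p = 0.0176) there, -1.08 and -1.24 on 1438175_x_at (adjusted p = 0.0267 and 0.0126), and -1.82 and -1.90 on 1450917_at (adjusted p = 0.0471 and 0.0362). The suffix x_at marks probe sets that can hybridise to related transcripts. On all 3 probe sets the soleus arrays numbered 3 were the highest of their group, at 14.40 in KO and 14.57 in WT on the brightest, the opposite of the order seen for Mybpc1.

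These Myom2 calls lay close to the threshold. On the brightest probe set the call in KO mice was lost without KO soleus replicate 1 or 2 or any single KO TA replicate (-0.99 to -0.75, adjusted p from 0.0526 to 0.0773). In WT mice it was lost without WT soleus replicate 1 or 2 or WT TA replicate 1 or 2 (-0.98 to -0.81, adjusted p from 0.0531 to 0.0643). The direction was the same under each of these settings. The 2 other probe sets also lost calls when single arrays were left out, 1438175_x_at at differences of -0.87 to -1.16 and 1450917_at at -1.49 to -1.95.

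Myom1, the general myomesin, was level across the 4 groups. It had 13.29, 13.01 and 13.33 in KO soleus, 12.96, 13.39 and 13.54 in WT soleus, 13.48, 13.33 and 13.50 in KO TA and 13.33, 13.48 and 13.61 in WT TA. All neighbouring groups overlapped, and the difference between soleus and TA was -0.23 in KO (95% interval -0.57 to 0.11) and -0.17 in WT mice (95% interval -0.51 to 0.16).

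**Figure D3:**
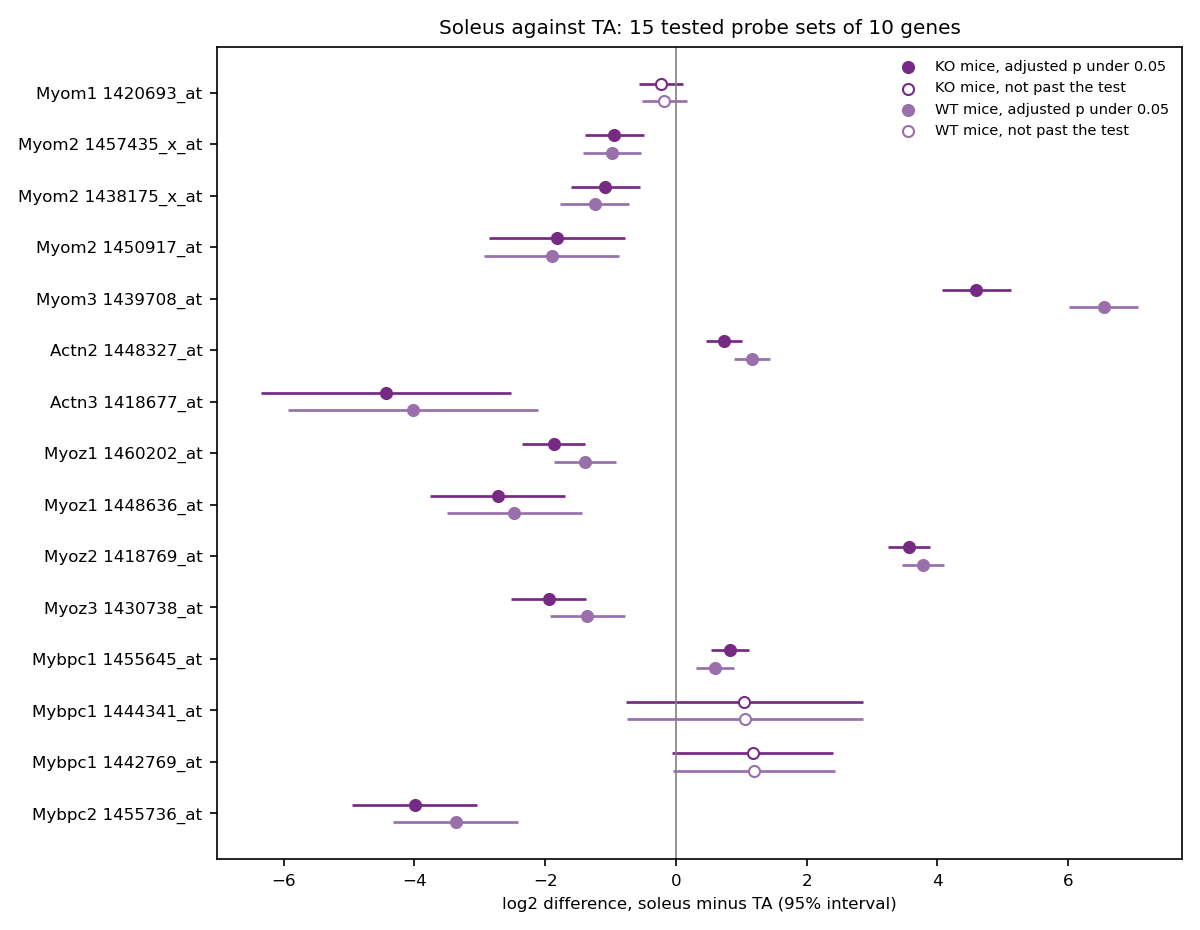
Log2 difference of soleus minus TA for the 15 tested probe sets, in KO mice and in WT mice. Points are limma estimates and lines 95% intervals, and filled points have an adjusted p under 0.05. Myom3 and Myoz2 lie farthest to the right, at 3.57 to 6.55, and Actn3 and Mybpc2 farthest to the left, at -4.43 to -3.37.

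The comparison of KO with WT asks how these genes differ in H6pd knockout mice in each muscle. In TA, Myom3 was the 1 member past the test, and it was higher in KO. Its mean was 6.72 ± 0.57 in KO TA and 4.36 ± 0.12 in WT TA (SD, n = 3 each), a difference of 2.36 (SE 0.235, adjusted p = 0.00384), or 5.13-fold. KO TA replicate 1 was the highest of its group at 7.35, and the lowest KO value of 6.22 exceeded the highest WT value of 4.50. Over all tested probe sets 2.02% differed between KO and WT TA, 0.975% higher in KO. The call of Myom3 held when any of the 12 arrays was left out (2.04 to 2.61) and with the replicate block, and was lost when only the 6 TA arrays were fitted (adjusted p = 0.0848), a fit in which 3 probe sets passed in all. Over all settings tried the Myom3 difference ranged from 1.74 to 2.61.

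Markers of slow and of fast fibres are given beside this result. Of 11 fast fibre markers 8 had a lower mean in KO TA, at a median difference of -0.12, and their summed signal was log2 19.01 to 19.12 in KO TA and 19.07 to 19.12 in WT TA. Myh2 was the 1 of them that passed, and it rose, with 14.62, 14.59 and 14.29 in KO TA and 12.66, 12.34 and 13.56 in WT TA (difference 1.64, SE 0.25, adjusted p = 0.015). Several of the fast fibre markers, such as Myh4 at 15.91 on all 3 WT TA arrays, lay near the top of the scale. Whether their differences and summed signal are compressed there was not tested. Of 9 slow fibre markers 8 had a higher mean in KO TA, at a median difference of 1.34, and none passed the test. Their summed signal was log2 12.29 to 13.10 in KO TA and 10.90 to 12.30 in WT TA. This median was 0.39 without WT TA replicate 3, on which Myh7 was 2.67 against 7.11 and 8.25 on the other WT TA arrays. Without that array the Myom3 difference remained past the test, and Myom3 on it was 4.30, within the range of its group. Of the slow markers, Tnni1, Tnnc1 and Atp2a2 did not overlap between KO and WT TA, and the others did. Tnni1 was 7.63 to 8.42 in KO TA and 4.86 to 7.04 in WT TA. Tnnc1 was 7.96 to 8.31 in KO TA and 5.54 to 7.44 in WT TA. On group average no slow marker was at background in KO or WT TA, and the part of these fibres in the Myom3 result was not tested.

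In KO TA the fast isoforms Actn3, Myoz1, Myoz3 and Mybpc2 had lower means that did not pass the test. The KO minus WT differences were -0.63 for Myoz1 1460202_at (95% interval -1.11 to -0.16, adjusted p = 0.18), -1.02 for Myoz1 1448636_at (-2.05 to 0.01, adjusted p = 0.336) and -0.76 for Myoz3 (-1.33 to -0.19, adjusted p = 0.179). They were -0.66 for Mybpc2 (-1.62 to 0.30, adjusted p = 0.531) and -0.99 for Actn3 (-2.90 to 0.93, adjusted p = 0.66). For each of these 5 probe sets all 3 KO TA arrays lay below all 3 WT TA arrays. In all, 6 of 15 members did not overlap between the genotypes, 1 higher (Myom3) and 5 lower in KO, where 21.7% of all tested probe sets did not overlap, 10.3% higher and 11.4% lower. Without KO soleus replicate 3, an array of the other muscle that widens the shared spread, Myoz1 1448636_at passed (adjusted p = 0.0441).

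The remaining members did not pass the test between KO and WT TA. Actn2 differed by 0.30 (95% interval 0.03 to 0.58, adjusted p = 0.272) and Myoz2 by 0.20 (-0.12 to 0.52, adjusted p = 0.572). The 3 Mybpc1 probe sets differed by -0.19, -0.14 and -0.03, the 3 of Myom2 by -0.12, -0.21 and -0.23, and Myom1 by -0.04, with adjusted p of 0.564 or more. On all of these remaining members the genotypes overlapped. The 95% intervals were wide for Mybpc1 1444341_at (-1.95 to 1.67), Mybpc1 1442769_at (-1.27 to 1.20) and Myom2 1450917_at (-1.27 to 0.80). No likeness of the genotypes was shown on those probe sets.

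**Figure D4:**
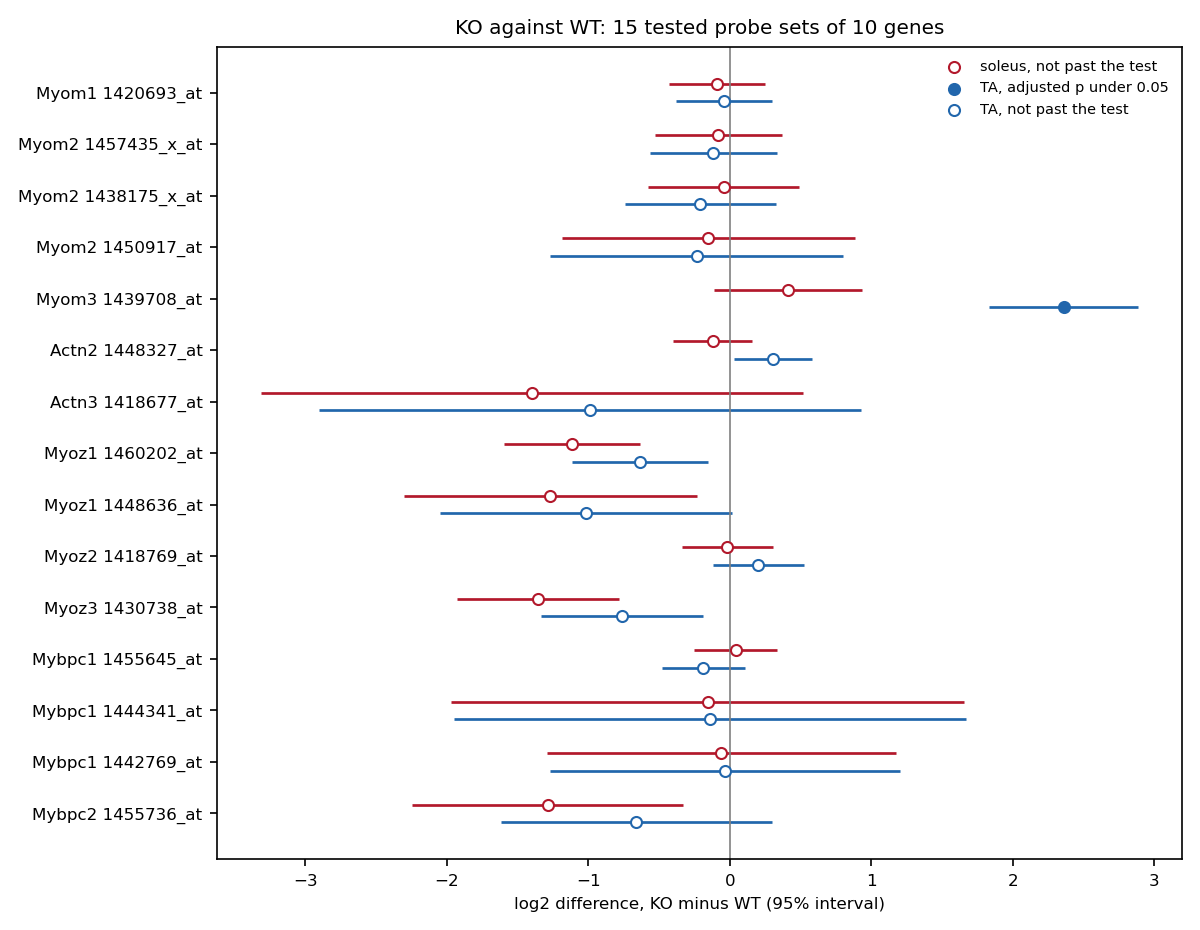
Log2 difference of KO minus WT for the 15 tested probe sets, in soleus and in TA. Points are limma estimates and lines 95% intervals, and filled points have an adjusted p under 0.05. Myom3 in TA, at 2.36, is the 1 filled point, and Actn3, Myoz1, Myoz3 and Mybpc2 lie left of 0 in both muscles.

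In soleus, 0 of the 15 members passed between KO and WT, where 0.0221% of all probe sets did, 5 in number. At an unadjusted p under 0.05 there were 4 members, beside 7.75% of all probe sets. The differences of these were -1.12 for Myoz1 1460202_at (95% interval -1.59 to -0.64, adjusted p = 0.172), -1.27 for Myoz1 1448636_at (-2.30 to -0.24, adjusted p = 0.498), -1.35 for Myoz3 (-1.93 to -0.78, adjusted p = 0.164) and -1.29 for Mybpc2 (-2.24 to -0.33, adjusted p = 0.442). All 4 had KO arrays below all WT arrays, Mybpc2 by a narrow margin, since KO replicate 1 and WT replicate 1 were both 11.33 to 2 decimals. With array weights Myoz1 1460202_at (adjusted p = 0.0283) and Myoz3 (adjusted p = 0.0356) passed, and 0.777% of all probe sets did.

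Actn3 differed by -1.40 in soleus (95% interval -3.31 to 0.51, adjusted p = 0.828), with the 2 genotypes overlapping. This value rested on single arrays: it was -0.37 without KO soleus replicate 3, -2.22 without KO soleus replicate 1 and -0.75 without WT soleus replicate 2. On KO soleus replicate 3 the fast-fibre genes Pvalb (8.94) and Myh4 (9.44) were low as well, against 13.38 and 12.73 for Pvalb and 12.01 and 13.27 for Myh4 on the other KO soleus arrays. The other fast fibre markers were lowest or level with the lowest on that array too, by less, except Myh2 (15.88 against 15.80 and 15.75). WT soleus replicate 3 was likewise the lowest of its group for Actn3 (10.24), Myh4 (10.22) and Pvalb (11.55). Over the 11 fast fibre markers the median KO minus WT difference in soleus was -0.02, 5 of them positive and none past the test, and their summed signal was log2 18.60 to 18.78 in KO and 18.75 to 18.87 in WT soleus. Several of these markers lay near the top of the scale in soleus too, such as Tnnc2 with means of 15.90 in both genotypes, and compression was not tested. Myh4 differed by 0.12. The part of fibre content in the Actn3, Myoz1, Myoz3 and Mybpc2 values was not tested.

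Myom3 was higher in KO soleus on every array, at 11.26 to 11.42 against 10.83 to 11.01 in WT soleus, but its difference of 0.41 (95% interval -0.11 to 0.94) did not pass (adjusted p = 0.792). The slow and general isoforms differed by little, with Myoz2 at -0.02, Mybpc1 1455645_at at 0.04, Actn2 at -0.12 and Myom1 at -0.09. Among the fast isoforms Myom2 differed by -0.08, -0.04 and -0.15 on its 3 probe sets, the last, 1450917_at, with a 95% interval of -1.19 to 0.88. The other Mybpc1 probe sets differed by -0.16 on 1444341_at (-1.97 to 1.65) and -0.06 on 1442769_at (-1.29 to 1.18). On intervals this wide no likeness of the genotypes was shown. In all, 5 of the 15 members did not overlap between the genotypes in soleus, where 11.2% of all probe sets did not. By sign alone, 13 of 15 members were lower in KO soleus and 12 of 15 in KO TA, beside 49.9% and 51.2% of all probe sets, and several of these members are probe sets of 1 gene.

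Whether KO acted differently in the 2 muscles was tested as the difference of the KO effects, TA minus soleus. It was largest for Myom3, at 1.95 (SE 0.33, 95% interval 1.21 to 2.69), and did not pass over all probe sets (adjusted p = 0.219), where 0.0353% passed. Without KO TA replicate 1 it passed (1.63, adjusted p = 0.0251), and over its other settings it stayed between 1.33 and 2.26. Of the fast isoforms it was 0.48 for Myoz1 1460202_at, 0.59 for Myoz3, 0.63 for Mybpc2, 0.41 for Actn3 and -0.04 for Myom2 1457435_x_at, with adjusted p of 0.948 or more, so neither a difference nor a likeness of the KO effect in the 2 muscles was shown for them.

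Other genes of the same structures were looked at in 3 lists. Over all tested probe sets, 6.6% differed between soleus and TA in KO and 7.71% in WT mice. With the replicate block, 13.2% and 14.6% did. In a fit on 1 probe set per gene, as in the lists, the shares were 8.97% and 10.7%. Of 23 tested Z-disc partners, 5 differed between soleus and TA in KO and 9 in WT mice, and 8 and 14 with the replicate block. Rcan1, an inhibitor of calcineurin, was higher in soleus by 2.90 in KO and 1.71 in WT, and Synpo2l, an actin-associated Z-disc protein, by 1.17 and 1.02. Pdlim5, a PDZ and LIM domain protein of the Z-disc (0.66 and 0.46), and the titin cap gene Tcap (0.62 and 0.37) were also higher. The relative Pdlim7 was -0.90 in KO (adjusted p = 0.0519) and -1.36 in WT (adjusted p = 0.00795), and the calcineurin subunit Ppp3cb was -0.52 (adjusted p = 0.0765) and -0.97 (adjusted p = 0.00491). None of the 23 passed between KO and WT in either muscle, at median differences of -0.01 in soleus and -0.07 in TA. With the replicate block Tcap passed in TA (-0.43, adjusted p = 0.0355), where 5.44% of all probe sets did.

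Of 16 tested M-band and A-band partners, 4 differed between soleus and TA in KO and 2 in WT mice, and 7 and 6 with the replicate block. Over all probe sets 6.6% differed in KO and 7.71% in WT mice, and 13.2% and 14.6% with the block. Fhl2, a LIM protein that binds titin, was higher in soleus by 3.84 in KO and 4.23 in WT, and Mylk2, the skeletal myosin light chain kinase, was lower (-2.46 and -2.62). Nbr1, a cargo receptor at the titin kinase (0.59), and Unc45b, a myosin chaperone (-0.78), passed in KO mice. None passed between KO and WT, at medians of -0.09 in soleus and -0.23 in TA. With the replicate block Cmya5 alone passed, in TA (-0.55), where 5.44% of all probe sets did. Its adjusted p lay just under the threshold and was 0.05 when rounded.

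Of 9 thin filament backbone genes, 3 differed between the muscles in KO and 4 in WT mice, and 4 and 5 with the replicate block, which added Klhl41 in KO (0.65, adjusted p = 0.00935) and Actc1 in WT (-2.19, adjusted p = 0.0401). The shares over all probe sets were again 6.6% in KO and 7.71% in WT mice, and 13.2% and 14.6% with the block. The leiomodins Lmod2 (3.35 in KO, 3.39 in WT) and Lmod3 (0.60 and 1.0), which lengthen or nucleate actin filaments, were higher in soleus, and the pointed-end cap Tmod1 was lower (-1.41 and -1.63). Tmod4, another pointed-end cap, was the 1 gene of these 3 lists that passed between KO and WT, and it fell by 0.68 on the log2 scale in KO TA (SE 0.11, adjusted p = 0.0151). This call was lost without KO TA replicate 2, without KO TA replicate 3, without the arrays numbered 3, and when only the TA arrays were fitted.

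For the 6 genes whose group means spanned more than 2, the 3 other genes with the smallest root mean square distance over the 12 arrays were found, each gene centred on its own mean. Myom3 lay nearest to Myl3 (distance 0.58), the slow essential light chain, Atp2a2 (0.69), the slow calcium pump, and Myl2 (0.92), the slow regulatory light chain. Myoz2 lay nearest to Pdlim1 (0.23), Khdrbs3 (0.37) and Homer2 (0.37), a closer match than any for Myom3. Actn3 lay nearest to the calcium buffer Pvalb (0.68), Plcd4 (0.77) and the sodium pump subunit Atp1b2 (0.81). Mybpc2 shared Atp1b2 (0.46) and Plcd4 (0.48) with it and had Mylk4 (0.52) as the third.

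Myoz1 lay nearest to Acvr1b (0.27), a receptor of activin and myostatin, Cyp27a1 (0.28) and Tirap (0.29), and Myoz3 to Acvr1b (0.37), Kctd15 (0.38) and Triobp (0.39). Acvr1b, nearest to both, averaged 5.91 in KO soleus, 6.95 in WT soleus, 7.38 in KO TA and 8.68 in WT TA, the same order of groups as the myozenins. These neighbours were picked by likeness over the same 12 arrays. A shared order of groups therefore comes with the choice and is no separate support. In Myom3's neighbours the KO TA and WT TA means were 10.46 and 9.51 for Myl3, 10.20 and 9.29 for Atp2a2 and 9.84 and 8.49 for Myl2. None of these differences passed the test. On Atp2a2 all KO TA arrays lay above all WT TA arrays (adjusted p = 0.0827), and on Myl3 and Myl2 the genotypes overlapped.

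**Figure D5:**
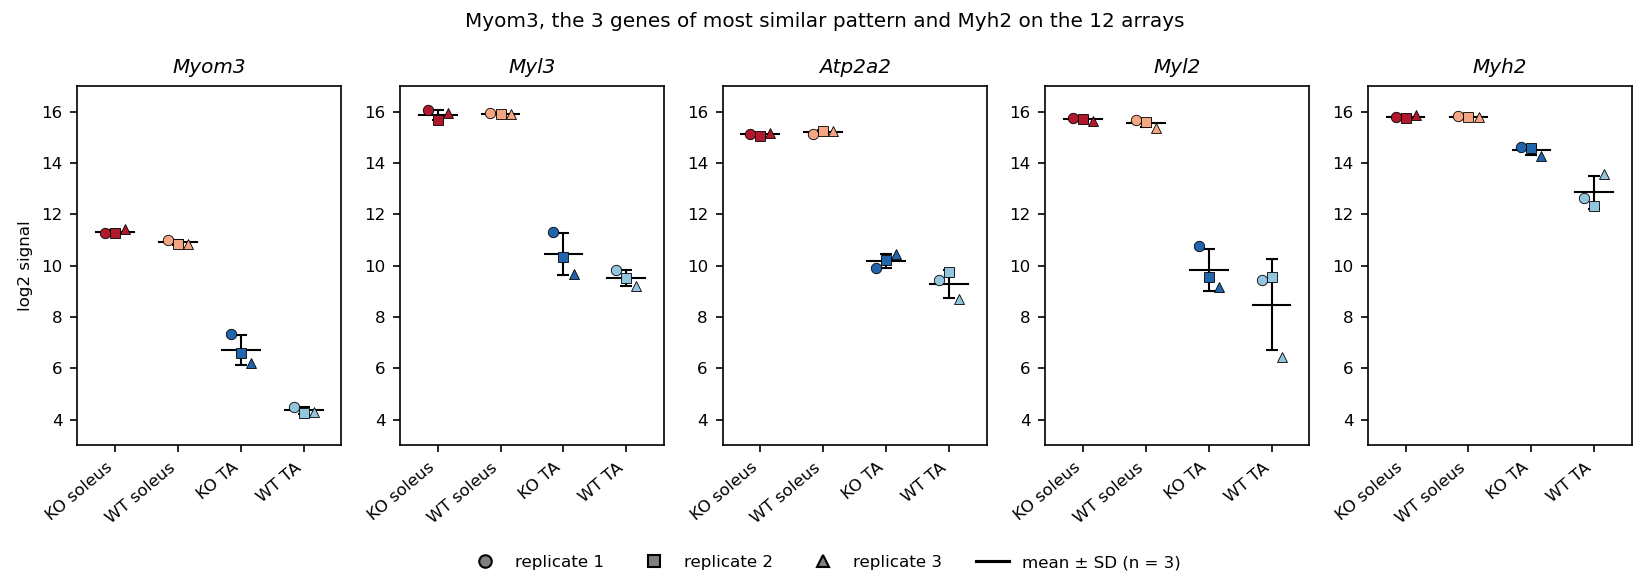
Log2 signal of Myom3, of the 3 genes with the most similar pattern over the 12 arrays (Myl3, Atp2a2, Myl2) and of Myh2, by group, on one scale. Points are arrays, shaped by replicate number, and bars are mean ± SD (n = 3). In TA, Myom3 and Myh2 separate KO from WT without overlap, as does Atp2a2, while Myl3 and Myl2 overlap, and WT TA replicate 3 is lowest for Myl2 at 6.44.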

How the data were processed

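Total RNA from muscle was made into biotin-labelled cRNA and hybridised to 1-colour Affymetrix arrays, per the labels' protocols. The deposited table gives log2 signals for 45101 probe sets, and MAS5 is named without a version in the submitters' processing notes; the method behind the log2 values was not given in the sources used here. All 12 columns were matched to samples by name. Values were quantile normalized, and a probe set was kept if it exceeded the 40th percentile of an array on at least 3 arrays. Of all probe sets 34958 had 1 gene symbol, 932 several and 9211 none; limma 3.58.1 under R 4.3.3 tested the 22660 kept ones with 1 symbol (4 group means over 12 arrays, eBayes with a variance trend, 2-sided). The brightest probe set stands for a gene. Background is the 95th percentile of 44 olfactory receptor probe sets, log2 3.55.

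Members, lists and tests were chosen with earlier results of these data known. All member probe sets are named; of each list up to 4 genes past the test are named by size, and nearest genes by distance. The fit was tested on simulated data. Equal replicate numbers had deviations correlated at 0.10 to 0.67 in every pair of groups, above the limit of 0.1, so blocked values are given where they change a call; unequal numbers reached 0.45, and the labels name no shared animal. P-values measure the spread between the deposited samples. Alternatives changed normalization, filter, probe choice, pseudocount, spread model, samples and block.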

Additional observations from a re-analysis of the deposited data

How the results depend on the processing

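The number of members past the test ranged, with each array left out in turn, over 0 to 0 for KO against WT in soleus, 1 to 2 in TA, 0 to 1 for the difference of the KO effects, 9 to 12 for soleus against TA in KO and 7 to 12 in WT. With array weights it was 2 for KO against WT in soleus. When only the 2 groups compared were fitted it was 0 for KO against WT in TA and 6 for soleus against TA in KO, with fewer samples behind the spread. In those 2 fits, 0.0132% and 2.97% of all probe sets passed. With the replicate block the number of members was 0 in soleus, 1 in TA, 0 for the difference, and 14 between the muscles in KO and 14 in WT. The block changed no member call other than those of Mybpc1 given above. With it, 13.2% of all probe sets passed between the muscles in KO and 14.6% in WT. Of 1760 values of single members, 1630 kept direction and call, 56 lost and 12 gained a call, and 62 changed sign, none of these past the test.
With each array left out in turn, differences that changed sign ranged as follows. For KO against WT in soleus, they ranged over -0.081 to 0.10 for Myoz2 1418769_at, -0.26 to 0.030 for Myom1 1420693_at, -0.23 to 0.18 for Myom2 1438175_x_at, -0.44 to 0.31 for Mybpc1 1442769_at, -0.73 to 0.46 for Mybpc1 1444341_at, -0.62 to 0.31 for Myom2 1450917_at, -0.25 to 0.12 for Myom2 1457435_x_at. In TA, they ranged over -0.11 to 0.028 for Myom1 1420693_at, -0.40 to 0.51 for Mybpc1 1442769_at, -0.76 to 0.55 for Mybpc1 1444341_at. For the difference of the KO effects, they ranged over -0.62 to 1.23 for Actn3 1418677_at, -0.069 to 0.22 for Myom1 1420693_at, -0.39 to 0.026 for Myom2 1438175_x_at, -0.34 to 0.57 for Mybpc1 1442769_at, -0.60 to 0.71 for Mybpc1 1444341_at, -0.40 to 0.64 for Myoz1 1448636_at, -0.54 to 0.38 for Myom2 1450917_at, -0.24 to 0.13 for Myom2 1457435_x_at. Median centring turned Myom1 in TA to 0.040, and the difference of the KO effects to 0.026 for Myom2 1450917_at and 0.011 for Myom2 1457435_x_at. Array weights turned Myoz2 in soleus to 0.046, Myom1 in TA to 0.016, and that difference to -0.089 for Mybpc1 1442769_at, -0.16 for Mybpc1 1444341_at and 0.019 for Myom2 1450917_at. Without the arrays numbered 3, Myoz2 in soleus was 0.079, Mybpc1 1442769_at in TA was 0.14 and the difference was -0.35 for Myoz1 1448636_at. The cause was not tested.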
